A study of Drosophila melanogaster with 3 samples.

Results

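The gap genes and the maternal factors that act above them set up the anterior-posterior axis of the fly embryo, and binding of the Sox protein D (Dichaete) at 9 of them was examined. They were taken by name, for their place in the patterning hierarchy and with no threshold on a measured value, and are 9 of 13945 protein-coding genes on the main chromosome arms. Earlier results of these data were known when they were chosen. The maternal factors are bicoid (bcd) and caudal (cad), the gap genes hunchback (hb), Krüppel (Kr), knirps (kni), knirps-related (knrl) and giant (gt), and the terminal gap genes tailless (tll) and huckebein (hkb). The data are from ChIP-seq, the sequencing of DNA that is precipitated with a protein, on 3 biological replicates of whole Drosophila melanogaster embryos aged 0 to 14 hours, of both sexes together. The embryos came from a transgenic line that stably expresses D with GFP at its C-terminus, and the antibody was against GFP. All 3 replicates form a single group with no second condition. The labels do not name the promoter of the transgene, nor say whether the control alignment comes from embryos that carry it.

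Bicoid is a homeodomain protein made from maternal mRNA at the anterior pole. It activates hb and blocks translation of cad mRNA, so that Caudal protein is restricted towards the posterior. The gap genes encode transcription factors that are expressed in broad bands, repress each other at their borders and position the stripes of the pair-rule genes, while tll and hkb respond to Torso receptor signalling at the poles. D is itself expressed in a broad trunk domain of the early embryo and D mutants have segmentation defects. Embryos up to 14 hours old include stages long after the gap domains have faded, and several of these genes are used again in the nervous system and gut. In whole embryos, binding in few cells and weak binding in many cells cannot be told apart.

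The main list held 5047 peaks, called IDR peaks here, which the authors kept for their low irreproducible discovery rate (IDR), a measure of how well peaks repeat between replicates. How high a peak stands is given by the authors' signal value, whose scale the files leave undefined. It ran from 187.8 to 4534.2 in the IDR list, with a median of 309.9. The pooled list of peaks and background regions goes down to 50.1. A gene's territory runs from 2 kb before the gene to 2 kb after it, and its flanks from there to 20 kb on each side. Coordinates are on the dm6 build. In the list of replicate 1, 56.5% of all IDR summits had a summit within 200 bp, against 98.3% in that of replicate 2 and 97.9% in that of replicate 3.

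IDR summits at the 9 genes were about as frequent as at protein-coding genes in general, and most had low signal values. They lay in the territories of 3 genes, bcd, cad and knrl, with 2 summits each, and 6 genes had none. The share of 3 in 9 stood close to that of all protein-coding genes, of which 30.4% had a summit in their territory. Among the genes whose territories were no longer than that of knrl, the longest of the 9, this share was 28.2%, and among those between the shortest (hkb) and the longest it was 34.9%. Requiring recovery of a summit among the 5047 highest of every replicate left 1 of the 9 genes, bcd, against 11.3% of all genes. With recovery in replicates 1 and 3 alone, leaving out replicate 2, it was also bcd only, against 11.9% of all genes. Recovery in replicates 1 and 2 gave bcd and knrl, against 12.1% of all genes. Recovery in replicates 2 and 3 gave bcd, cad and knrl, against 24.8% of all genes.

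The flanks added 17 summits, so that 23 IDR summits lay within 20 kb of 7 of the 9 genes, while Kr and gt had none. Among all protein-coding genes 75.8% had a summit within 20 kb and 69.9% had one in the flanks, against 7 of the 9 here by either count. Most of the 23 were low for this list. Their signal values ran from 189.3 to 772.9 with a median of 246.3, and 4 of them stood above the median of all IDR peaks, at cad and bcd. The start site nearest to a summit was that of the gene itself for 5 of the 6 territory summits and for 2 of the 17 flank summits. A summit in a flank is therefore mostly nearer to another gene, and no summit shows which gene it acts on.

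**Figure D1:**
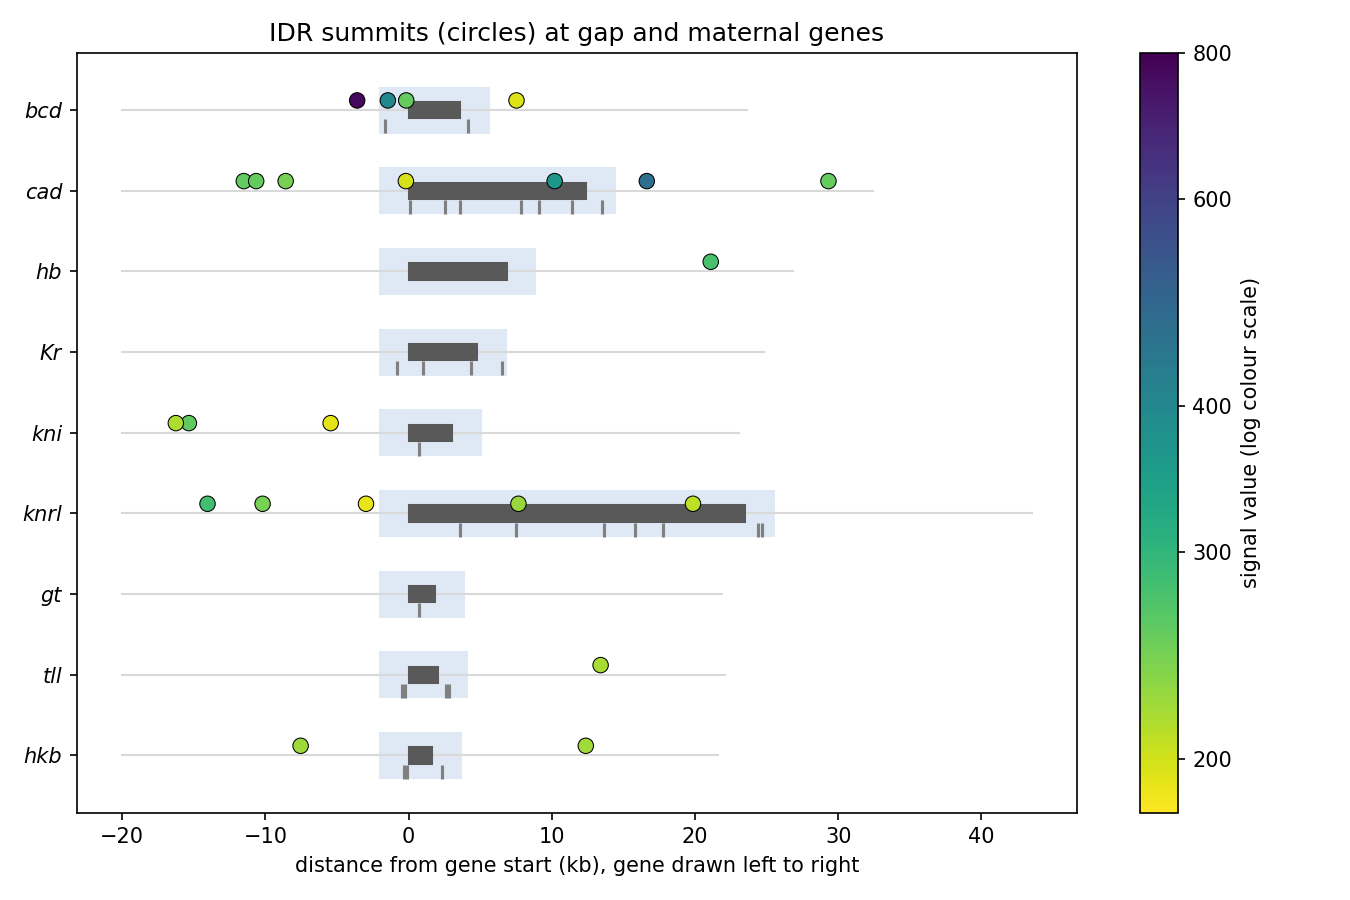
Positions of IDR summits (circles, coloured by signal value) at the 9 genes, as the distance from the gene start in kb with each gene drawn from left to right (dark bar), its territory (shaded) and its flanks (line); grey ticks are summits of the pooled list within the territory that did not reach the IDR list. The 2 summits with the highest signal values lie 3589 bp upstream of bcd and 4229 bp downstream of cad, and Kr and gt have no circle.

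Of the 9 genes, bcd had the highest territory summit in the IDR list. In replicate 3 that of cad was higher, at 236.5 against 175.6. Only bcd had territory summits that were recovered in all 3 replicates. The gene (FBgn0000166) lies at chr3R:6755842-6759466 on the minus strand, in the Antennapedia complex. The higher summit of its territory, 1447 bp upstream of the gene start in intergenic sequence (region chr3R:6760685-6761140), had a signal value of 399.8 and ranked 1746 among IDR peaks. It also lay in the territory of the neighbouring gene Ama and 600 bp from lncRNA:CR45593, though the nearest start site was that of bcd. In the replicates' own lists this summit had signal values of 85.1, 132.2 and 175.6 in replicates 1, 2 and 3, with ranks of 1240, 2045 and 1639. A second summit lay at the promoter, 164 bp upstream of the start, with a signal value of 256.7 and replicate ranks of 1642, 4003 and 4610. Both were thus among the 5047 highest summits of every replicate. Of 4239 genes with a summit in their territory, 49.4% had a higher one than bcd.

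The windows of 100 bp on each side of these summits are shown because they are the only territory summits of the 9 genes that all 3 replicates recovered. They are the plus strand of the reference, 5′ to 3′, and so run against the direction of bcd. Capitals mark the Sox core ACAAT or its reverse complement ATTGT, which occurs once in each window.
bcd, 1447 bp upstream, chr3R:6760813-6761013: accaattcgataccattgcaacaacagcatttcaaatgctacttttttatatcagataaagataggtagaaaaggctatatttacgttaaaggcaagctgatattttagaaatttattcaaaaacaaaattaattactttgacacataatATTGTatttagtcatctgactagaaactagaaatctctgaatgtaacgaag
bcd, 164 bp upstream, chr3R:6759530-6759730: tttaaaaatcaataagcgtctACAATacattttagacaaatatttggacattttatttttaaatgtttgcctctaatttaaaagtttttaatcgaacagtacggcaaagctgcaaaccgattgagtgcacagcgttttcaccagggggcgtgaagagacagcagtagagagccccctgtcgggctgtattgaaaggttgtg

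Outside the territory of bcd, 2 further summits lay at neighbouring genes. The highest of all 23, with a signal value of 772.9 and rank 556, lay 3589 bp upstream of bcd and 349 bp from a start site of Ama, which encodes an immunoglobulin-domain adhesion protein. It also lay inside the non-coding gene lncRNA:CR45593. It ranked 417, 760 and 423 in replicates 1, 2 and 3, so each of the 3 lists held it near the top. This summit was the poorest in G and C of the 23, at 19.4% of 201 bp, against a median of 32.8% for the 23 and 34.3% for all IDR summits. On the other side, 3912 bp downstream of bcd, a summit of 195.0 was 2264 bp from the start of zen, a homeodomain gene of dorsal patterning. It was near the threshold of the IDR list and ranked 2648, 4651 and 7214 in the replicates.

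At cad the picture was of replicates 2 and 3 without replicate 1. The gene (FBgn0000251) lies at chr2L:20770731-20783135 on the plus strand. A summit in an intron, 10199 bp from the gene start (region chr2L:20780850-20781043), had a signal value of 365.3 and rank 1993. The start site nearest to it was that of the neighbouring gene Pomp, 6726 bp away. This intronic summit had signal values of 109.0 and 236.5 in replicates 2 and 3, with ranks of 2748 and 959. It had no summit within 200 bp in replicate 1. A second, 189 bp upstream of the gene start, had a signal value of 198.7, close to the lowest IDR peak, and replicate values of 106.7 and 90.6, again with no match in replicate 1. The highest region of replicate 1 anywhere in the cad territory had a signal value of 24.5 and ranked 22152. The list of replicate 1 therefore gave no value for either summit of cad.

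Both windows at cad are shown for contrast with each other. The intronic window holds the Sox core once, in capitals, while the promoter window, at 56.2% G and C the richest of the 23, holds none.
cad, intron, chr2L:20780830-20781030: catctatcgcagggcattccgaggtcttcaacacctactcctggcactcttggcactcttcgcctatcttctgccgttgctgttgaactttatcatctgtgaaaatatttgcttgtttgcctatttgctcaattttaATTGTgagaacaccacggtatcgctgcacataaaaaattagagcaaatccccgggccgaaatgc
cad, 189 bp upstream, chr2L:20770442-20770642: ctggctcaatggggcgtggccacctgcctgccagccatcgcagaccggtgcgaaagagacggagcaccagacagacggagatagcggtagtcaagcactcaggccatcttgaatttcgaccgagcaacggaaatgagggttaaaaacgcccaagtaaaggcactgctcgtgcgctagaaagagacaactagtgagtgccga

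The 5 flank summits of cad lay at other genes. Upstream, summits of 257.4, 255.4 and 246.3 lay within dia, which encodes a formin that nucleates actin filaments, at 1074, 210 and 1849 bp from its nearest start site. Downstream, a summit of 468.2 with rank 1368 was 292 bp from the start of Pomp, the gene of a proteasome assembly factor, and one of 257.0 lay within CG9328. Of these 5, the one of 246.3 was matched in replicate 1, at rank 6794. In replicates 2 and 3 all 7 summits of cad had a match, with ranks from 1451 to 4213 in replicate 2 and from 959 to 8680 in replicate 3.

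The kni and knrl genes, a related pair that encode proteins of the nuclear receptor superfamily, lie 71670 bp apart on 3L with both genes on the minus strand. Summits at both loci were low. All 8 were matched in all 3 replicates, unlike those of cad, against 54.4% of all IDR summits. A match can be to a low region of a replicate's list. Recovery among the 5047 highest of every replicate held for 1 summit of kni and 2 of knrl, and for 0 of cad. The territory of knrl (FBgn0001323, at chr3L:20597141-20620659) held 2 intronic summits. The one 7671 bp from the gene start had a signal value of 227.0 and ranked 5190, 4223 and 4406 in replicates 1, 2 and 3. The one 19858 bp from it had a signal value of 209.4 and ranked 1937, 4315 and 8834. Each fell outside the 5047 highest of 1 replicate: replicate 1 at 7671 bp and replicate 3 at 19858 bp.

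Upstream of knrl, towards kni, further summits lay in sequence between coding genes. Described here are those at 2972 and 10192 bp from the gene start, with signal values of 189.3 and 244.1. The nearer is the lowest of the 23 and was uneven between replicates, with a rank of 2599 in replicate 2 but 10674 in replicate 3 and 27268 in replicate 1. The summit of 244.1 ranked 1370, 4804 and 4424, so it was recovered in every replicate. The nearer stood 220 bp from lncRNA:CR44684. The whole interval between the genes held 0.42 IDR summits per 10 kb, against 0.38 per 10 kb over all arms.

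The windows of these 2 summits are shown because each holds both the Sox core and the Bicoid motif TAATCC or its reverse complement GGATTA; both kinds are in capitals. The windows were picked after the matches were seen. In the first window 2 Sox matches overlap.
knrl, 2972 bp upstream, chr3L:20623531-20623731: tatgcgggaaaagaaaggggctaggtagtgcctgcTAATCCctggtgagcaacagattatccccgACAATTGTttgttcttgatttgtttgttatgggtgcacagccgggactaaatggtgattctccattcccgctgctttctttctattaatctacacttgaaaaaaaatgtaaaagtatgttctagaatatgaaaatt
knrl, 10192 bp upstream, chr3L:20630751-20630951: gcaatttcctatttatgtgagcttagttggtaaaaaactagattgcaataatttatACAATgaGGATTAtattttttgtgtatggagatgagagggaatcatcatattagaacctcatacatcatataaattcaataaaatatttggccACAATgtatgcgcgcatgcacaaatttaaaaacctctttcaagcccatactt

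The gene kni itself, at chr3L:20692330-20695378, had a territory free of IDR summits. In the pooled list 1 summit lay there, with a signal value of 63.6. Its 3 flank summits all lay upstream, at 5441, 15339 and 16250 bp, with signal values of 191.3, 258.8 and 215.7. The nearest of them ranked 3133, 5329 and 7192 in replicates 1, 2 and 3. The farthest stood higher in replicate 1, at rank 1072, than in replicates 2 and 3, at 7410 and 6981. For the summit at 5441 bp the nearest start site was that of kni, and for the other two that of CG34260.

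The territories of hb and gt held no IDR summit and at most 1 summit of the pooled list. The hb gene lies at chr3R:8690980-8697822 on the minus strand and encodes a zinc finger protein that is both maternal and zygotic. It was the single gene of the 9 with no summit of the pooled list in its territory, while 8 of the 9 had 1 or more, against 65.1% of all protein-coding genes. The replicates' own lists held 4, 1 and 1 summits there, with highest signal values of 33.2, 23.2 and 33.1 and best ranks of 8689, 25693 and 21601. These highest summits lay at different places, 1206, 8480 and 2636 bp from the gene start. The 1 flank summit, 14257 bp beyond the gene, had a signal value of 277.4, was 110 bp away from the start of Unc50 and was matched in replicates 2 and 3. For gt, a gene of a basic leucine zipper repressor at chrX:2427113-2428967, the pooled list held 1 summit of 51.1, at the very bottom of the list with rank 29284. Replicate 2 held 1 summit of 20.6 in that territory, and replicates 1 and 3 held none. The summit of replicate 2 was at -317 bp from the gene start and the pooled one at 738 bp, so they lay at different places. The nearest IDR summit was 30343 bp away.

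Kr, which encodes a zinc finger repressor of the central embryo, lies on 2R from 25226611 to 25231394. Its territory held 4 summits of the pooled list, the highest at 97.0 with rank 12152. In the replicates the highest signal values were 49.6 in replicate 2 and 54.7 in replicate 3, with ranks of 9105 and 10484, and replicate 1 had no region there. These highest summits lay at different places. The pooled one was at 4387 bp from the gene start, that of replicate 2 at 1021 bp and that of replicate 3 at -794 bp (negative is upstream). The nearest IDR summit lay 59260 bp from the gene, the farthest of the 9. Kr is near the end of the arm, at 25286936, so that summit lies on the upstream side. The last region of the IDR and pooled lists on 2R ends at 25257509. The highest pooled value at Kr was thus below the lowest IDR peak.

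Among the terminal gap genes, tll encodes an orphan nuclear receptor and lies at chr3R:30852315-30854400. The pooled list held 4 summits in its territory, the highest at 92.3 and just upstream of the gene start. In the lists of replicates 1, 2 and 3 the highest values were 26.2, 42.4 and 42.3. Those of replicates 2 and 3 lay upstream, at -332 and -433 bp from the gene start, while that of replicate 1 lay at 2580 bp. The single flank summit, 11323 bp downstream of the gene, had a signal value of 218.4 and lay 1798 bp from Cpr100A, a cuticle protein gene. It ranked 10148, 4344 and 4219 in the replicates.

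The other terminal gene, hkb, encodes a zinc finger repressor and lies at chr3R:4345015-4346646. Its territory held 3 pooled-list summits of at most 95.9, the highest just upstream of the gene start. The highest values in the replicates' own lists there were 52.4 in replicate 2 and 74.7 in replicate 3, with ranks of 8439 and 6532, and replicate 1 had no region there. The rank in replicate 3 was better than that of some IDR summits at knrl and kni. A flank summit 7538 bp upstream, in intergenic sequence, had a signal value of 223.7 and replicate values of 155.0 and 85.9 in replicates 2 and 3. Another, 10742 bp downstream, had a value of 222.4 and was 202 bp away from the start of CG9776, with replicate values of 85.0 and 80.0. Neither had a match in replicate 1, as at hb and for 6 of the 7 summits of cad.

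The upstream window of hkb is shown because it holds the extended Sox sequence AACAATG in 2 copies, the only window of the 23 with more than 1. Capitals mark the Sox core within them.
hkb, 7538 bp upstream, chr3R:4354084-4354284: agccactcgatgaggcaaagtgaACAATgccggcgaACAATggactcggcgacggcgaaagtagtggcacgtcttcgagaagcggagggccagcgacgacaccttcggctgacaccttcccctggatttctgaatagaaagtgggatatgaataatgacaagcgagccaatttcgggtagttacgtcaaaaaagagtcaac

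**Figure D2:**
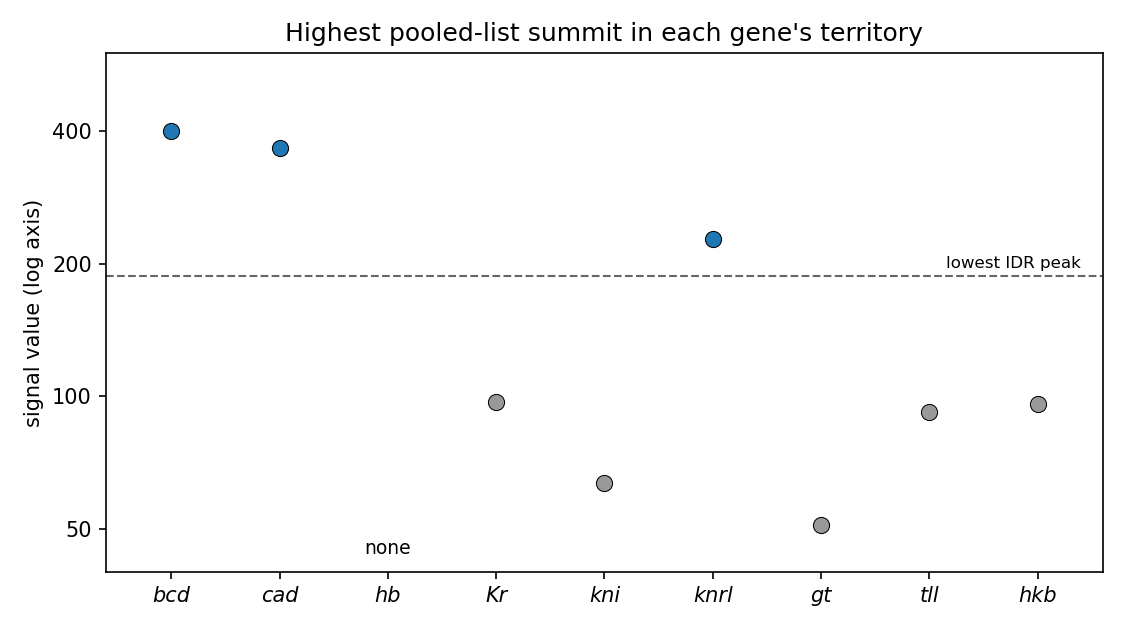
Signal value (log axis) of the highest summit of the pooled list in the territory of each of the 9 genes; the dashed line is the lowest IDR peak, at 187.8, and hb has no summit. The values of bcd (399.8), cad (365.3) and knrl (227.0) lie above the line, and those of the other 5 genes with a summit lie between 51.1 and 97.0.

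At the 6 genes without an IDR summit in their territory the pooled values were low. Where the pooled list held a summit at all, the highest stood between 51.1 at gt and 97.0 at Kr, against 187.8 for the lowest IDR peak. Taking the 5047 highest summits of each replicate in turn gave the same 2 or 3 genes. Replicate 1 put such a summit in the territories of bcd and knrl, against 21.5% of all protein-coding genes. Replicates 2 and 3 each put one in those of bcd, cad and knrl, against 31.1% and 30.1% of all genes. No replicate had one at hb, Kr, kni, gt, tll or hkb.

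Matches in replicate 1 differed between loci, but the genes with summits had only 1 to 7 each. For 7 of the 23 the nearest start site was the gene's own, so the counts describe loci more than the named genes. All 23 summits had a match within 200 bp in replicates 2 and 3. Replicate 1 matched 14 of the 23, or 60.9%, against 56.5% of all IDR summits. Those 14 were all 4 of bcd, all 3 of kni, all 5 of knrl, the 1 of tll and 1 of the 7 of cad, while none of hb and hkb was matched. Among the 5047 highest of each replicate, 10, 21 and 14 of the 23 were recovered in replicates 1, 2 and 3. The share for replicate 3, 60.9%, stood below the 83.9% of all IDR summits, and those for replicates 1 and 2 were 43.5% against 50% and 91.3% against 85.2%. All 3 replicates recovered 6 of the 23, 3 at bcd, 2 at knrl and 1 at kni, or 26.1% against 38.5% of all. These shares were not tested.

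**Figure D3:**
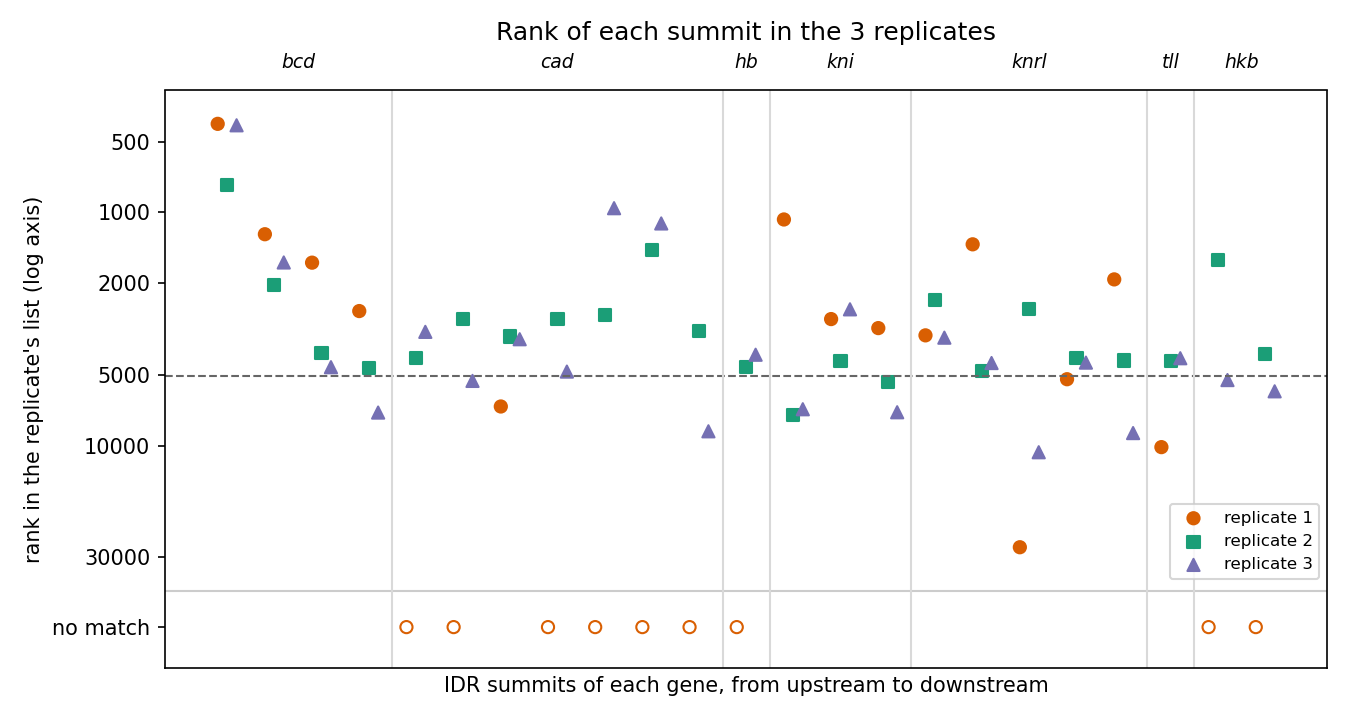
Rank (log axis, best at the top) of each of the 23 IDR summits in the list of each replicate, by gene and from upstream to downstream within a gene; the dashed line is rank 5047 and open symbols have no summit within 200 bp. The 4 summits of bcd and the 8 of kni and knrl have points for all 3 replicates, while 6 of the 7 of cad and those of hb and hkb have none for replicate 1.

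By position, 7 of the 23 summits lay within 500 bp of a start site of a coding gene, or 30.4%, against 34.8% of all IDR summits. Of these 7, that at bcd and that at cad were at the genes' own promoters, and the rest were at Ama, dia, Pomp, Unc50 and CG9776. Introns held 6, of which 3 were in the genes themselves, and intergenic sequence held 10. Of the 3 genes with territory summits, bcd was bound at and upstream of its promoter, cad at the promoter and in an intron, and knrl in introns.

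The sequence within 100 bp of the summits was searched on both strands for 8 short motifs, and a match is a description of letters only. The Sox core ACAAT was in 12 of the 23 windows, or 52.2%, against 52.1% of all IDR summits and 43.9% of windows 1000 bp to either side of these. At 1000 bp from the 23 themselves it was in 17 of 46 windows, or 37.0%. The extended form AACAATG was in 2 of 23, at kni and hkb, against 5.65% of all summits. The share of windows with the core was thus nearly that of the whole list, and it was present at both bcd territory summits and at neither intronic summit of knrl.

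Motifs of the axis factors themselves were each in at most 4 of the 23 windows. The Bicoid motif TAATCC was in 4 of 23 windows, or 17.4%, against 6.32% of all summits. These included the 2 windows shown upstream of knrl and the 1 summit of tll. In the windows 1000 bp from the 23 it was in 4 of 46. The Caudal motif TTTATG was in 4 of 23, or 17.4%, against 23.6% of all. The Hunchback motif TTTTTATG, which contains the Caudal one, was in 3, among them the intronic summit of cad, or 13.0% against 3.67%. The motif CAGGTA of Zelda, the activator of the zygotic genome, was in 1, the summit near Ama, or 4.35% against 3.88%. The Krüppel motif AAGGGTT was in none, against 2.22% of all. The GAGA motif GAGAG was in 8, or 34.8% against 23.0%, and 3 of these were the summits within dia. At 1000 bp from the 23, Caudal, Hunchback, Zelda and GAGA were in 23.9%, 4.35%, 10.9% and 17.4% of 46 windows, and Krüppel in none. Within 50 bp of the summits Bicoid was in 2 (8.7% against 3.27% of all summits), Caudal in 1 (4.35% against 13.2%) and Hunchback in 1 (4.35% against 1.96%). Zelda was in 0 (against 1.98%) and GAGA in 3 (13.0% against 10.6%). Within 200 bp the Bicoid motif was in 17.4% of the 23 windows and in 17.4% of the windows 1000 bp away from them. With 23 windows, 1 window more or less moves these shares by several points, and no test was made.

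A list of 21 other genes of anterior-posterior patterning was read in the same way. Of these, 13 had an IDR summit in their territory, or 61.9%, against 30.4% of all protein-coding genes and 3 of the 9. The highest were at gro, a corepressor gene next to the E(spl) complex, with a signal value of 1054.8, at exu, which acts in the localisation of bcd mRNA, with 855.6, at pum, a translational repressor of maternal hb mRNA, with 843.4, and at cic, a repressor relieved by Torso signalling, with 716.0. The territories of pum and cic are long, with 7 summits each. No share of genes with territories of like length was computed for this list, so the difference from all genes and from the 9 is not adjusted for length. The list was chosen with earlier results of these data known, and its share was not tested. By gene body alone 6 of the 21 genes had a summit. Nearest start sites were not listed for these summits, so some may lie nearer to another gene. The highest summits of exu and cic ranked 355 and 1203 in replicate 1, and those of gro and pum had no match there. The others with a summit were nanos, swa, tsl, zld, oc, slp1, slp2, croc and pdm2. Among summits recovered in all 3 replicates 6 of the 21 genes had one, against 11.3% of all genes. Leaving out replicate 2 or replicate 3 also gave 6, against 11.9% and 12.1% of all genes, and leaving out replicate 1 gave 12, against 24.8%.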

How the data were processed

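Peak lists of 3 replicates, of the replicates pooled, and the IDR-thresholded list were used on dm6. The authors called regions on each replicate and on the pool, each against a control alignment, per the deposited text files. Neither the peak caller nor the IDR cutoff is stated. Chromatin was sonicated, with a size range of 200 to 800 per the labels. The deposited signal value (column 7) describes and ranks peaks within a list. The deposited −log10 q values (column 9) enter no result. Read depth is unknown. The IDR list is the 5047 highest peaks of the pooled list, and 1 pooled region and 2 of replicate 1 outside X, 2L, 2R, 3L, 3R and 4 were left out. The dm3 lists were not used here. The details of 1 summit upstream of knrl are not reported here.

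Summits were placed against Ensembl release 115 genes and Release 6 sequence (RefSeq). A match lies within 200 bp; a recovered summit matches one of the 5047 highest of a replicate. Leaving out a replicate means recovery in both others. The genes and lists were chosen with earlier results of these data known, so no list was tested; nanos was matched through its synonym nos. Named are the 9 genes, the genes nearest to or overlapping their summits, and the listed genes with a summit, with values for the 4 highest. Steps were checked on planted summits. Python 3.11.15, numpy 2.4.6, pandas 2.3.3 and matplotlib 3.10.9 were used.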

Additional observations from a re-analysis of the deposited data

How the results depend on the processing

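No paired analysis was possible because there is 1 group. The count of genes with a territory summit, 3, stayed between 2 and 4 under 4 settings: the upper 50% of peaks by signal (cad and bcd), the gene body alone, 5 kb on each side, and the nearest start site, which adds kni. It was 1 with recovery in all 3 replicates and 1 to 3 with a replicate left out. The 6 summits became 2 in the upper 50% of peaks, 3 by gene body, 10 with 5 kb on each side and 2 with recovery in all replicates, with 2 to 5 when a replicate was left out. The highest value with 5 kb on each side was 772.9 for bcd and 468.2 for cad. Genes with a flank summit, 7, became 2 in the upper 50% and 3 with full recovery, with 3 to 6 when a replicate was left out. Pooled-list summits lay in 5 gene bodies, against 8 territories. The patterning list of 13 fell to 8, 6 and 6 in the upper 50%, by gene body and with full recovery, with 6 to 12 when a replicate was left out. Except for territory counts by replicate recovery, the share of all protein-coding genes was not computed under these settings. Those changes therefore cannot be told from changes at genes in general. The Sox core was in 8 windows at 50 bp and 18 at 200 bp, against 12 at 100 bp. These were 34.8% at 50 bp and 78.3% at 200 bp, against 32.0% and 74.3% of all IDR summits. At 50 and 200 bp Bicoid was in 2 and 4, Caudal in 1 and 9, and Hunchback in 1 and 4. GAGA was in 3 and 12, Zelda in 0 and 3, and the extended Sox form in 1 and 2. Among all IDR summits Bicoid was in 3.27% and 11.0%, Caudal in 13.2% and 40.2%, and Hunchback in 1.96% and 7.49%. GAGA was there in 10.6% and 46.3%, Zelda in 1.98% and 8.32%, and the extended Sox form in 3.05% and 11.0%. Depth is unknown, so a gene without a summit cannot be called unbound.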
